A study of Sus scrofa with 8 samples.

Results

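A set of 10 genes of hepatic glucose synthesis and of the insulin response was followed from the healthy to the steatotic liver of pigs. The genes were PC, PCK1, PCK2, FBP1, G6PC, PPARGC1A, FOXO1, IRS1, IRS2 and PDK4. They were taken by their symbols from the 18103 genes and new transcripts of the deposited table, where each had 1 row. The set was chosen with earlier results of these data known. The shares over all genes that stand beside its counts are therefore descriptions and not tests. All 10 passed the filter on low values (0.3 FPKM or more in 4 or more of the 8 libraries), as did 13175 genes in all. FPKM counts sequenced fragments relative to the length of the transcript and to the mapped fragments of the library, so levels are given per length.

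Hepatic RNA of male Landrace x Large White pigs was measured by RNAseq in 8 libraries, each a pool of 2 pigs. The 4 libraries labelled Liver_Control came from healthy animals of 4 months, sampled by biopsy through laparotomy under anaesthesia, and are called the initial state. The 4 libraries labelled Liver_Steatosis came from pigs of 6 months after 2 months on a steatotic diet rich in saturated fat, fructose, cholesterol and cholate and poor in methionine and choline, sampled after euthanasia. That diet also gave a smaller share of its energy as protein and as carbohydrate than the control diet. Per the study's methods both groups were the same animals, fasted overnight at both samplings. Pigs kept on the control diet to the later age were not analysed here. The effects of the diet, of age and of the way of sampling cannot be told apart, and p-values measure the spread between pools.

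Hepatocytes make glucose from lactate, amino acids and glycerol during fasting. Pyruvate carboxylase (PC) makes oxaloacetate, the phosphoenolpyruvate carboxykinases (PCK1 in the cytosol, PCK2 in the mitochondrion) turn it into phosphoenolpyruvate, fructose bisphosphatase (FBP1) removes a phosphate further up the pathway, and the catalytic subunit of glucose-6-phosphatase (G6PC) releases free glucose. Glucagon and glucocorticoids induce PCK1 and G6PC through the coactivator PPARGC1A and the transcription factor FOXO1, whereas insulin, through the receptor adaptors IRS1 and IRS2 and the kinase AKT, drives FOXO1 out of the nucleus. PDK4 phosphorylates and inactivates pyruvate dehydrogenase, which spares pyruvate for glucose synthesis, and is induced by fasting and fatty acids.

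In steatosis, 4 of the 10 genes had significantly lower levels: PCK1, G6PC, PPARGC1A and FBP1. PDK4 was significantly higher, and PC, PCK2, FOXO1, IRS1 and IRS2 did not pass the test. The test was limma on log2(FPKM + 0.1) with Benjamini-Hochberg adjustment over all 13175 genes and a limit of 0.05 for the adjusted p. Over all genes tested, 2.28% were lower and 26.7% were higher by this rule, so the 4 genes that fell belong to the rarer direction and the single rise to the common one. The median log2 fold change was -0.34 over the 10 genes and 0.25 over all genes tested. No gene of the 10 passed an adjusted p under 0.01 with a log2 fold change beyond 1, which 6.35% of all genes did. These cut-offs are the ones the study states in its results, applied here to limma. An unadjusted p under 0.05 in limma was found for 7 of the 10. In 3 of the 10 (PCK1, FBP1 and PPARGC1A) every steatosis pool lay below every initial pool, against 2.53% of all genes tested.

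**Figure D1:**
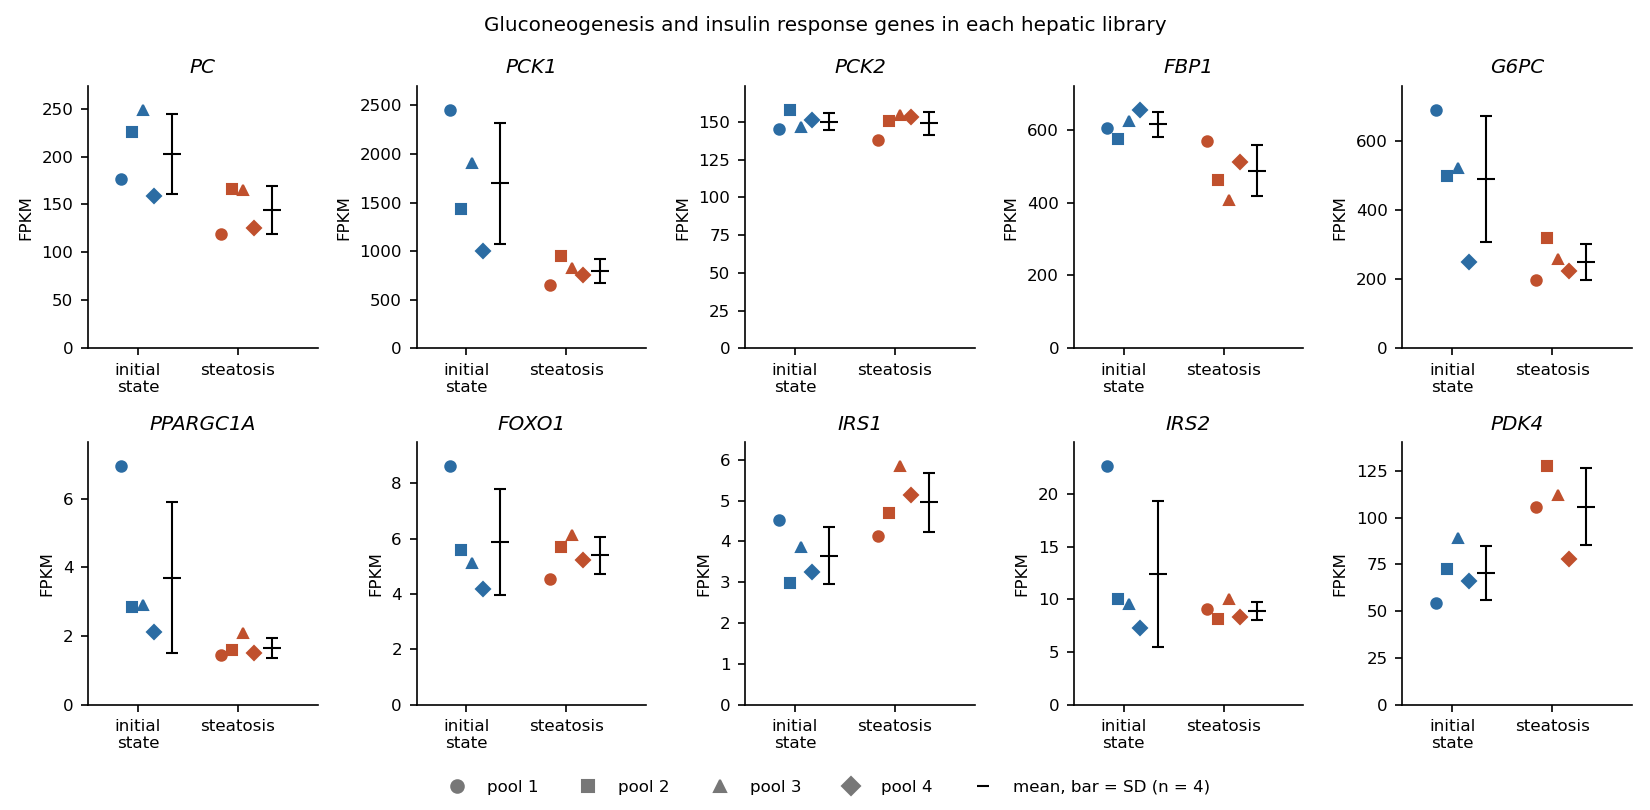
FPKM of the 10 genes (vertical axes, each from 0) in the 4 initial and the 4 steatosis pools, with the pool number as the symbol and the mean with its SD (n = 4) beside the points. PCK1, FBP1 and PPARGC1A have no steatosis pool at the level of an initial pool, whereas the pools of PCK2 overlap between groups.

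The sum of FPKM per library was 511863 to 545731, yet most genes were somewhat higher in steatosis. Median ratio scaling, which divides a library by the typical ratio of its genes to their geometric mean, moved the median log2 fold change of all genes from 0.25 to -0.01, and the calls from 3519 higher and 300 lower to 1539 higher (11.7%) and 1289 lower (9.78%). Which scaling is right was not tested, so values of the 10 genes under this scaling are given beside those of the deposited FPKM. After it, 5 of the 10 genes were called lower (PC, PCK1, FBP1, G6PC and PPARGC1A) and none was called higher.

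Initial pool 1 stood apart from the other pools. The summed level of 10 skeletal muscle genes was 3000 FPKM in it against 1.13 to 22.5 in the other initial pools and 0.31 to 1.35 in steatosis. The sum of 10 stomach mucosa genes was 1518 FPKM against 1.19 to 25.2 and 0.83 to 1.12, with 5 of the genes at 0 in every steatosis pool. The sum of 8 adipose genes was 91.3 FPKM in initial pool 1, 17.3 to 19.1 in the other initial pools and 56.1 to 65.9 in steatosis. Of these 8, 4 were highest in initial pool 1, such as ADIPOQ, with 27.9 FPKM in it and 0 to 0.6 in every other library. Immediate early genes, which respond within minutes to stress and growth signals, summed to 451 FPKM in it, 52.5 to 144 in the other initial pools and 88.4 to 224 in steatosis, and of 10 such genes only EGR2 was called (higher by 1.76 on the log2 scale, limma adjusted p = 0.00136). The part of these in the results was not tested, and values without initial pool 1 are given where they changed a call. Initial pool 4 lay as far out on the opposite side: on the second principal component, which held 16% of the variance, pool 1 scored 43.6, pool 4 scored -37.6 and the other 6 libraries -5.8 to 5.5. Pool 4 was the lowest initial pool for 51.1% of all genes tested, and without it the log2 fold change was -1.26 for PCK1 and -1.20 for G6PC. Without initial pool 1, PCK1 and PPARGC1A were called lower, IRS1 was called higher, and the other genes of the 10 were not called.

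The labelled tissue showed its defining genes: 9 hepatocyte markers, such as albumin, summed to 66473 to 99337 FPKM in the initial pools and to 60555 to 71698 in steatosis, with 1 called higher (TF) and 2 lower (FGB and HPX). Of 12 macrophage markers, 10 were higher in steatosis, and their sum went from 563 to 664 FPKM up to 1699 to 2477. Of 8 genes of hepatic stellate cells 3 were higher and 1 lower, of 7 endothelial genes 2 were higher, and of 6 measured adipose genes 1 was higher (FABP4). Over all genes tested 26.7% were higher and 2.28% lower. After median ratio scaling TF, the stellate cell genes RGS5 and PDGFRB and the endothelial gene KDR were no longer called. In such bulk samples, fewer cells of a type and less RNA per cell cannot be told apart.

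PCK1, on chromosome 17 (57930507 to 57936523 in Sscrofa11.1), was the most abundant of the 10 genes in both groups. Its level was 2455, 1430.5, 1907 and 999.9 FPKM in initial pools 1 to 4 and 654, 948, 824 and 749.8 FPKM in steatosis pools 1 to 4. Every steatosis pool lay below every initial pool, although initial pool 4 came close to steatosis pool 2. The mean fell from 1698 ± 626 to 794 ± 124 FPKM (SD, n = 4 pools), which is 46.8% of the initial mean. The log2 fold change was -1.03 (SE 0.25, 95% interval -1.59 to -0.48, limma adjusted p = 0.0131), and the exact two-sided permutation test gave p = 0.0286, the smallest that 4 against 4 pools allow. It was -1.30 after median ratio scaling and -0.83 without initial pool 1, and PCK1 was called lower in all 8 fits that left out 1 library. The call was lost without pool 3 of both groups (log2 fold change -0.97, adjusted p = 0.06, in a range of 0.00303 to 0.06 over 19 alternatives).

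G6PC, on chromosome 12 (19965885 to 19975783), ordered the initial pools as PCK1 did. It stood at 689, 498, 521 and 249.7 FPKM in initial pools 1 to 4 and at 197, 318, 258 and 224 FPKM in steatosis. Initial pool 4 lay inside the range of the steatosis pools, and the other initial pools lay above it. The mean went from 490 ± 181 to 249 ± 52.1 FPKM (SD, n = 4), and the log2 fold change was -0.91 (SE 0.28, limma adjusted p = 0.0356), with an exact permutation p of 0.0857. After median ratio scaling the log2 fold change was -1.18. The call was lost in 6 of the 8 fits with a library left out, those without initial pools 1, 2 or 3 or steatosis pools 1, 3 or 4, where the log2 fold change was -0.71 to -0.93 and the adjusted p at most 0.0884 (0.00257 to 0.116 over 19 alternatives).

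FBP1, on chromosome 10 (27588609 to 27622225), changed less, with little spread between the initial pools. The initial pools 1 to 4 held 605, 575, 623 and 655 FPKM and the steatosis pools 569.7, 461, 406 and 511 FPKM. No steatosis pool reached an initial pool, but steatosis pool 1 was close to initial pool 2. The mean fell from 614 ± 33.3 to 487 ± 69.8 FPKM, 79.3% of the initial mean, with a log2 fold change of -0.34 (SE 0.11, limma adjusted p = 0.0475, exact permutation p = 0.0286). After median ratio scaling it was -0.62. In the fit blocked on the pool number the adjusted p was 0.0501, and the call was lost without any single library other than steatosis pool 1 (adjusted p up to 0.123, and 0.0124 to 0.192 over 19 alternatives).

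PC, on chromosome 2 (5566608 to 5587797), was measured at 177, 225, 249 and 159 FPKM before the diet and at 119, 166, 165 and 126 FPKM after it, in pools 1 to 4. The groups overlapped, with initial pool 4 below steatosis pools 2 and 3, yet within each pair of same-numbered pools the steatosis pool was lower. The log2 fold change of -0.49 (SE 0.17) did not pass the test (limma adjusted p = 0.0549). PC was called lower in the fit blocked on the pool number (adjusted p = 0.00798), after median ratio scaling (log2 fold change -0.76, adjusted p = 0.00874) and without initial pool 4 (-0.59, adjusted p = 0.0309), in a range of 0.00356 to 0.138 over 19 alternatives.

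PCK2, on chromosome 7 (75187195 to 75197613), was the steadiest of the 10 genes. It read 145, 158, 147 and 151 FPKM in the initial state and 138, 150.5, 155 and 153 FPKM after the diet, with coefficients of variation of 3.85% and 5.13%. The log2 fold change was -0.01, with a 95% interval of -0.19 to 0.17 that excludes a change like that of PCK1. This rests on the deposited scale: after median ratio scaling it was -0.28 (interval -0.49 to -0.07, limma adjusted p = 0.0595, in a range up to 0.995 over 19 alternatives).

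The ratio of PCK1 to PCK2 does not depend on the scaling of the libraries, apart from the pseudocount. It was 16.92, 9.05, 12.99 and 6.61 in initial pools 1 to 4 and 4.73, 6.30, 5.32 and 4.89 in the steatosis pools. The highest steatosis pool lay just under the lowest initial pool. The mean ratio went from 11.4 ± 4.53 to 5.31 ± 0.707 (SD, n = 4), and the log2 ratio fell by 1.02 (exact permutation p = 0.0286, also 0.0286 after adjustment over 2 ratios, the smallest possible). The cytosolic enzyme thus fell relative to the mitochondrial one. With a pseudocount of 1 FPKM the fall was still 1.02 and the pools of the groups did not overlap. The adjusted p of the permutation test was then 0.0571, through the adjustment shared with the IRS2 to IRS1 ratio.

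**Figure D2:**
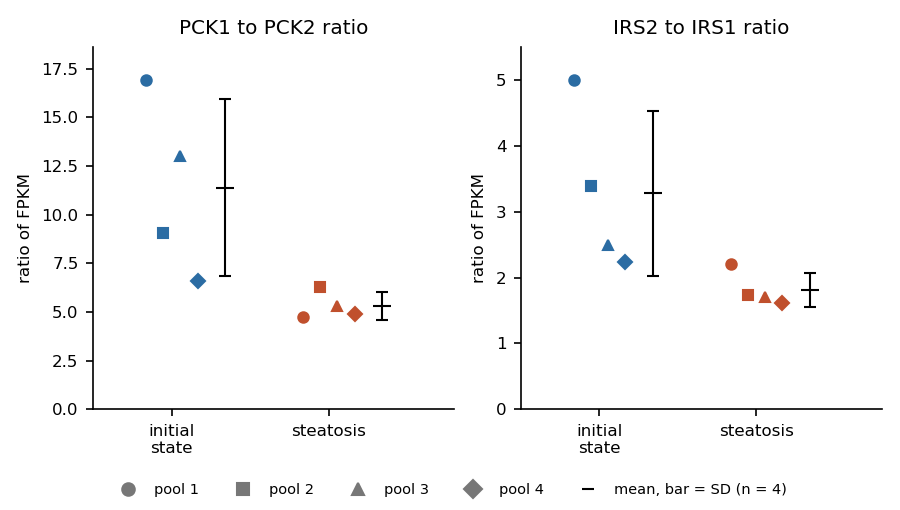
Ratio of FPKM of PCK1 to PCK2 and of IRS2 to IRS1 (vertical axes from 0) in the 4 initial and 4 steatosis pools, with symbols for the pool number and the mean with its SD (n = 4). Both ratios are lower in every steatosis pool than in every initial pool, by a small margin at the nearest pools.

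PPARGC1A, on chromosome 8 (17841844 to 18527953), was expressed at a low level, and at the lowest of the 10 genes in steatosis. It stood at 6.96, 2.85, 2.90 and 2.11 FPKM in initial pools 1 to 4 and at 1.44, 1.6, 2.09 and 1.5 FPKM in the steatosis pools. Initial pool 1 was far above the other initial pools, and steatosis pool 3 nearly reached initial pool 4. The mean fell from 3.71 ± 2.2 to 1.66 ± 0.296 FPKM (SD, n = 4), 44.7% of the initial mean. The log2 fold change was -0.98 (SE 0.32, limma adjusted p = 0.0422, exact permutation p = 0.0286). Without initial pool 1 the log2 fold change was smaller, -0.63, and still called (adjusted p = 0.034). The call was lost without initial pools 2 or 3 or any single steatosis pool (log2 fold change -0.92 to -1.09, adjusted p 0.0523 to 0.097) and with a pseudocount of 1 FPKM (-0.73, adjusted p = 0.0528), in a range of 0.0219 to 0.097 over 19 alternatives.

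FOXO1, on chromosome 11 (15317222 to 15410059), gave 8.62, 5.60, 5.13 and 4.17 FPKM in initial pools 1 to 4 and 4.55, 5.69, 6.12 and 5.23 FPKM in steatosis. All steatosis pools lay within the range of the initial pools. The log2 fold change of -0.08 (95% interval -0.53 to 0.38, limma adjusted p = 0.793) became 0.12 without initial pool 1 (adjusted p = 0.578, in a range of 0.233 to 0.999 over 19 alternatives). The level of the RNA says nothing of the place of the protein in the cell, through which insulin acts on FOXO1.

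IRS1, on chromosome 15 (128245846 to 128307321), had 4.53, 2.97, 3.86 and 3.26 FPKM before and 4.13, 4.71, 5.85 and 5.15 FPKM after the diet. Initial pool 1 lay above steatosis pool 1, and the other steatosis pools were above every initial pool. The mean was 3.65 ± 0.691 and 4.96 ± 0.726 FPKM, and the log2 fold change of 0.44 (SE 0.16, limma adjusted p = 0.0658) did not pass. It was 0.54 and passed without initial pool 1 (adjusted p = 0.0312), and it was 0.17 after median ratio scaling (adjusted p = 0.503, the highest over 19 alternatives).

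IRS2, on chromosome 11 as FOXO1 is (76626158 to 76654639), reached 22.7 FPKM in initial pool 1 and 10.1, 9.60 and 7.26 FPKM in initial pools 2 to 4. The steatosis pools held 9.10, 8.16, 9.99 and 8.33 FPKM, all within the range of the initial pools. The log2 fold change was -0.34 (SE 0.29, 95% interval -0.99 to 0.31, limma adjusted p = 0.401) and 0.00 without initial pool 1, with an interval of -0.32 to 0.31.

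Against IRS1, IRS2 was lower in steatosis. The ratio of IRS2 to IRS1 was 5.0, 3.39, 2.49 and 2.23 in initial pools 1 to 4 and 2.2, 1.73, 1.71 and 1.62 in the steatosis pools. Initial pool 4 and steatosis pool 1 were nearly equal, and the groups did not overlap. The mean ratio was 3.28 ± 1.25 and 1.82 ± 0.263 (SD, n = 4), and the log2 ratio fell by 0.78 (exact permutation p = 0.0286, adjusted over 2 ratios 0.0286). With a pseudocount of 1 FPKM the fall was 0.68 and the adjusted p 0.0571, and with any single library left out the log2 difference lay between -0.94 and -0.55.

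PDK4, on chromosome 9 (75246956 to 75260134), was the only gene of the 10 called higher. Initial pools 1 to 4 held 54.5, 72.4, 89.0 and 66.1 FPKM and steatosis pools 106, 128, 112 and 78.1 FPKM. Steatosis pool 4 lay below initial pool 3, and the other steatosis pools lay above every initial pool. The mean rose from 70.5 ± 14.4 to 106 ± 20.7 FPKM (SD, n = 4), with a log2 fold change of 0.59 (SE 0.18, limma adjusted p = 0.034, exact permutation p = 0.0571). Relative to the other genes the rise was smaller: after median ratio scaling it was 0.31 and not called (adjusted p = 0.24), as after upper quartile scaling (0.37, adjusted p = 0.171). The call was also lost without initial pools 1, 2 or 4 or steatosis pools 1, 2 or 3 (log2 fold change 0.47 to 0.61, adjusted p 0.0569 to 0.0908), in a range of 0.0156 to 0.24 over 19 alternatives.

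**Figure D3:**
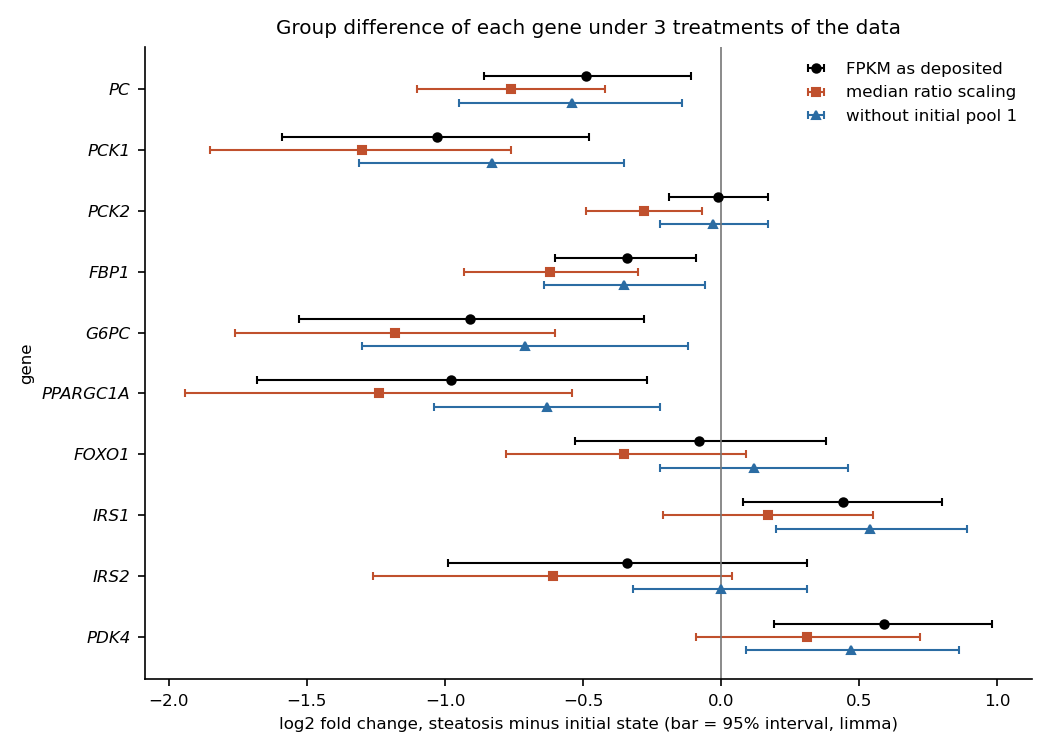
Log2 fold change, steatosis minus initial state, of the 10 genes with 95% intervals from limma, on the deposited FPKM, after median ratio scaling and without initial pool 1. The intervals of PC, PCK1, FBP1, G6PC and PPARGC1A lie below 0 under all 3 treatments, and those of FOXO1 and IRS2 include 0 under all 3. The intervals are not adjusted for the number of genes. By the adjusted p, PC was not called on the deposited FPKM, and PC, FBP1 and G6PC were not called without initial pool 1.

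The same-numbered pools allowed a view within pairs. In all 4 pairs the steatosis pool was lower for 5 of the 10 genes (PC, PCK1, FBP1, G6PC and PPARGC1A), against 5.97% of all genes tested, and higher for 1 (PDK4), against 44.1%. The size differed by pair. The log2 ratio of PCK1 was -1.91 in pair 1 and -1.21 in pair 3, but -0.59 and -0.42 in pairs 2 and 4. G6PC ran in the same order, with -1.81, -1.02, -0.65 and -0.16 in pairs 1, 3, 2 and 4. Pair 1 also held the only log2 ratios below 0 of FOXO1 (-0.91) and IRS1 (-0.13), whereas in pairs 2 to 4 IRS1 was higher by 0.59 to 0.65. PDK4 differed by 0.95 and 0.82 in pairs 1 and 2, and by 0.33 and 0.24 in pairs 3 and 4.

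**Figure D4:**
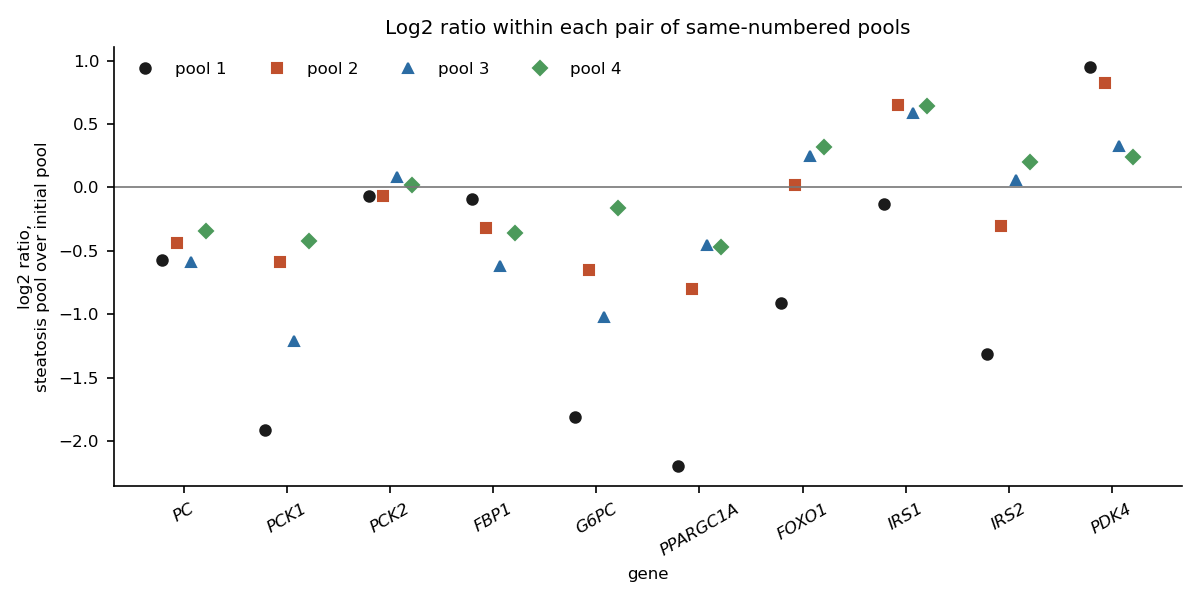
Log2 ratio of the steatosis pool over the initial pool of the same number for the 10 genes, 1 symbol per pair. Pair 1 lies at -1.91 for PCK1, -1.81 for G6PC and -2.20 for PPARGC1A, below the other pairs, and PC, PCK1, FBP1, G6PC and PPARGC1A lie below 0 in all 4 pairs.

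The initial pools were more unequal than the steatosis pools. For 8 of the 10 genes the coefficient of variation was smaller in steatosis, as it was for 74% of all genes tested. IRS2 went from 56.1% to 9.41%, PPARGC1A from 59.4% to 17.8% and PCK1 from 36.9% to 15.7%, whereas PCK2 and FBP1 varied less in the initial state. Initial pool 1 was the highest and initial pool 4 the lowest of the initial pools for 5 of the 10 genes (PCK1, G6PC, PPARGC1A, FOXO1 and IRS2), an order that 16.5% of all genes tested shared. Between these pools the level of PCK1 differed by 2.46 times, that of G6PC by 2.76 times, that of IRS2 by 3.12 times and that of PPARGC1A by 3.30 times. In steatosis no gene of the 10 differed by more than 1.63 times between pools.

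The order of levels was nearly kept. In the initial state the mean FPKM ran from PCK1 (1698) through FBP1 (614), G6PC (490), PC (202), PCK2 (150) and PDK4 (70.5) to IRS2 (12.4), FOXO1 (5.88), PPARGC1A (3.71) and IRS1 (3.65). The pools of FBP1 and G6PC overlapped, as did those of IRS2 with FOXO1, FOXO1 with PPARGC1A and PPARGC1A with IRS1, and the other neighbours did not. In steatosis PCK2 (149) and PC (144) changed places with overlapping pools, PDK4 (106) overlapped with PC, and IRS1 (4.96) stood above PPARGC1A (1.66) without overlap. Among all 18103 entries PCK1 ranked 44 by mean FPKM in the initial state and 93 in steatosis, and G6PC 143 and 301.

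Other genes of glucose synthesis were mostly not called. Of 25 partners of the pathway, 3 were lower and 2 higher, against 2.28% and 26.7% of all genes tested, and their median log2 fold change was -0.16. In the fit blocked on the pool number 5 were lower, as were 343 of all 13175 genes. GPD1, which carries glycerol into the pathway, lay between 54.1 and 82.1 FPKM before the diet and fell to between 23.5 and 37.9 FPKM (log2 fold change -0.99, limma adjusted p = 0.00303). LDHB, a subunit of lactate dehydrogenase, fell by 0.71 on the log2 scale (adjusted p = 0.00551). The cytosolic aspartate aminotransferase GOT1 fell by 0.70 (adjusted p = 0.00901), while its mitochondrial counterpart GOT2 rose by 0.47 (adjusted p = 0.0093) and G6PC3, a widely expressed glucose-6-phosphatase, rose by 0.43 (adjusted p = 0.0172, and 0.0575 without steatosis pool 4). GPD1, LDHB, GOT1 and GOT2 kept their calls in all 8 fits with a library left out. After median ratio scaling 10 partners were lower and none higher, GOT2 (0.19) and G6PC3 (0.16) being no longer called. Under that scaling 9.78% of all genes tested were lower and 11.7% higher.

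Among 19 measured regulators of glucose synthesis, 2 fell and 3 rose, against 2.28% and 26.7% of all genes tested. The rises were thus a smaller share than over all genes and the falls a larger one. The median of 0.22 was close to that of all genes (0.25). FOXA2, a liver transcription factor active in fasting, fell from 13.6 to 20.7 FPKM to 6.47 to 8.02 FPKM (log2 fold change -1.07, limma adjusted p = 0.000742). NR0B2, a corepressor induced by bile acids, fell by 1.43 on the log2 scale (adjusted p = 0.0173), from 34.7, 16.9, 17.5 and 7.69 FPKM to between 4.86 and 7.31 FPKM. FOXO4 rose by 0.67 (adjusted p = 0.00398), CREB1, which mediates the response to cAMP, by 0.62 (adjusted p = 0.0159) and CREB3L3 by 0.51 (adjusted p = 0.0292). After median ratio scaling FOXA2 and NR0B2 were still lower and FOXO4 (0.40) higher, and CREB1 and CREB3L3 were not called. CREB3L3 also lost its call without steatosis pools 2 or 4 (adjusted p up to 0.0813).

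Of 12 genes of glucagon and cAMP signalling only 1 was called, while 26.7% of all genes tested were higher and 2.28% lower. This was ADCY6, an adenylate cyclase, higher by 0.50 (limma adjusted p = 0.0417). It was not called in the fit blocked on the pool number (adjusted p = 0.0663), after median ratio scaling (0.23) or without initial pool 1 or any single steatosis pool (adjusted p up to 0.111). The glucagon receptor GCGR differed by 0.12 (adjusted p = 0.588).

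Insulin receptor signalling held 5 higher and 1 lower among 29 measured genes, with a median of 0.20. The share higher was below the 26.7% of all genes tested and the median below the 0.25 of all genes. Of all genes tested 2.28% were lower. SOCS1, which dampens cytokine and insulin signals, fell from 9.12 to 17.6 FPKM to 6.53 to 8.50 FPKM (log2 fold change -0.74, limma adjusted p = 0.0143). PIK3CD, a catalytic subunit of phosphoinositide kinase found mainly in leukocytes, rose by 0.73 (adjusted p = 0.0345), SH2B2 by 0.57 (adjusted p = 0.0339) and SH2B1 by 0.50 (adjusted p = 0.0315). AKT1 rose by 0.46 (adjusted p = 0.00826) and the adaptor GRB2 by 0.43 (adjusted p = 0.0045). The receptor INSR itself differed by 0.02 (adjusted p = 0.929). These 5 rises stood beside that of 10 of 12 macrophage markers, and the part of macrophages in them was not tested. None of the 5 was called after median ratio scaling. That scaling called 3 of the 29 genes lower, a share near the 9.78% of all genes tested, and 11.7% of all genes higher. PIK3CD lost its call without initial pools 1, 2 or 4 or steatosis pools 2, 3 or 4 (adjusted p up to 0.0906), SH2B1 without initial pools 1 or 4 or steatosis pools 1, 2 or 4 (up to 0.0815), and SH2B2 without initial pools 1 or 2 or steatosis pools 1, 3 or 4 (up to 0.0969).

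Genes that FOXO1 or fasting induces held 3 that rose and 3 that fell among 14. The share that rose was below the 26.7% of all genes tested, and the share that fell was above the 2.28%. CITED2, a transcriptional coregulator, rose from 9.94 to 19.2 FPKM to 27.6 to 40.7 FPKM (log2 fold change 1.30, limma adjusted p = 0.00154), and SESN3, a stress protein, by 0.82 (adjusted p = 0.00918). G0S2, an inhibitor of triglyceride lipase, fell by 1.12 on the log2 scale (adjusted p = 0.0214). The receptor ERBB3 rose by 0.47 (adjusted p = 0.0386), and CPT1A, which admits fatty acids to the mitochondrion, fell by 0.60 (adjusted p = 0.0389). The calls of CITED2 and SESN3 held in all 8 fits with a library left out and after median ratio scaling, and that of G0S2 held after that scaling. G0S2 lost its call without initial pool 3 or steatosis pools 1 or 3 (adjusted p up to 0.0568). CPT1A, still lower after that scaling (-0.87), lost it without initial pools 1, 2 or 3 or steatosis pools 1, 3 or 4 (adjusted p up to 0.105). ERBB3 lost it after median ratio scaling (0.20) and without initial pools 1, 2 or 4 or steatosis pools 2, 3 or 4 (up to 0.108).

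Around PDK4, 1 of 13 genes of the pyruvate dehydrogenase complex and its control rose and 1 fell, with a median of -0.04. Of all genes tested 26.7% rose and 2.28% fell. After median ratio or upper quartile scaling 1 of the 13 was higher (PDK2) and 4 were lower (PDK1, PDP2, PDHX and DLD). Of all genes, 11.7% were higher and 9.78% lower after median ratio scaling. After upper quartile scaling 1728 of 13175 were higher and 959 lower. PDK2, another kinase of the complex, rose from 25.9, 30.1, 31.8 and 28.7 FPKM to 42.5, 49.7, 48.5 and 48.4 FPKM (log2 fold change 0.70, limma adjusted p = 0.000801). All steatosis pools lay above all initial pools, and the rise held in all 8 fits with a library left out and after median ratio scaling (0.42, adjusted p = 0.0156). The phosphatase PDP2, which reactivates the complex, fell from 4.70, 6.14, 4.24 and 3.56 FPKM to 3.18, 3.36, 2.49 and 2.39 FPKM (log2 fold change -0.68, adjusted p = 0.0225). It was not called without steatosis pools 3 or 4 (adjusted p up to 0.0671). PDK1 (-0.14), PDK3 (0.03) and PDP1 (0.19) were not called, although PDK1 was lower after median ratio scaling (-0.41, adjusted p = 0.0157).

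A list of genes of insulin-induced glucose use and of fatty acid synthesis rose in 5 of 9 cases, against 26.7% of all genes tested, with a median of 0.43. After median ratio or upper quartile scaling 3 were higher and 1 was lower. Of all genes, 11.7% were higher and 9.78% lower after median ratio scaling. After upper quartile scaling 1728 of 13175 were higher and 959 lower. SREBF1, the regulator of fatty acid synthesis, rose from 5.43, 11.4, 9.57 and 4.8 FPKM to 14.9, 23.0, 37.4 and 25.6 FPKM (log2 fold change 1.70, limma adjusted p = 0.00454) and ACACA, acetyl-CoA carboxylase, by 1.19 (adjusted p = 0.00193). Both rises held in all 8 fits with a library left out and after median ratio scaling. Liver pyruvate kinase (PKLR) rose by 0.63 (adjusted p = 0.0287), a call lost after median ratio scaling (0.36) and without initial pools 1 or 4 or steatosis pools 2, 3 or 4 (adjusted p up to 0.0673). PFKFB1, which sets the signal for glycolysis, rose by 0.43 (adjusted p = 0.0385), a call lost after median ratio scaling (0.16) and without initial pools 2, 3 or 4 or steatosis pools 1, 2 or 4 (adjusted p up to 0.0965). Fatty acid synthase (FASN) differed by 0.03 (adjusted p = 0.953).

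**Figure D5:**
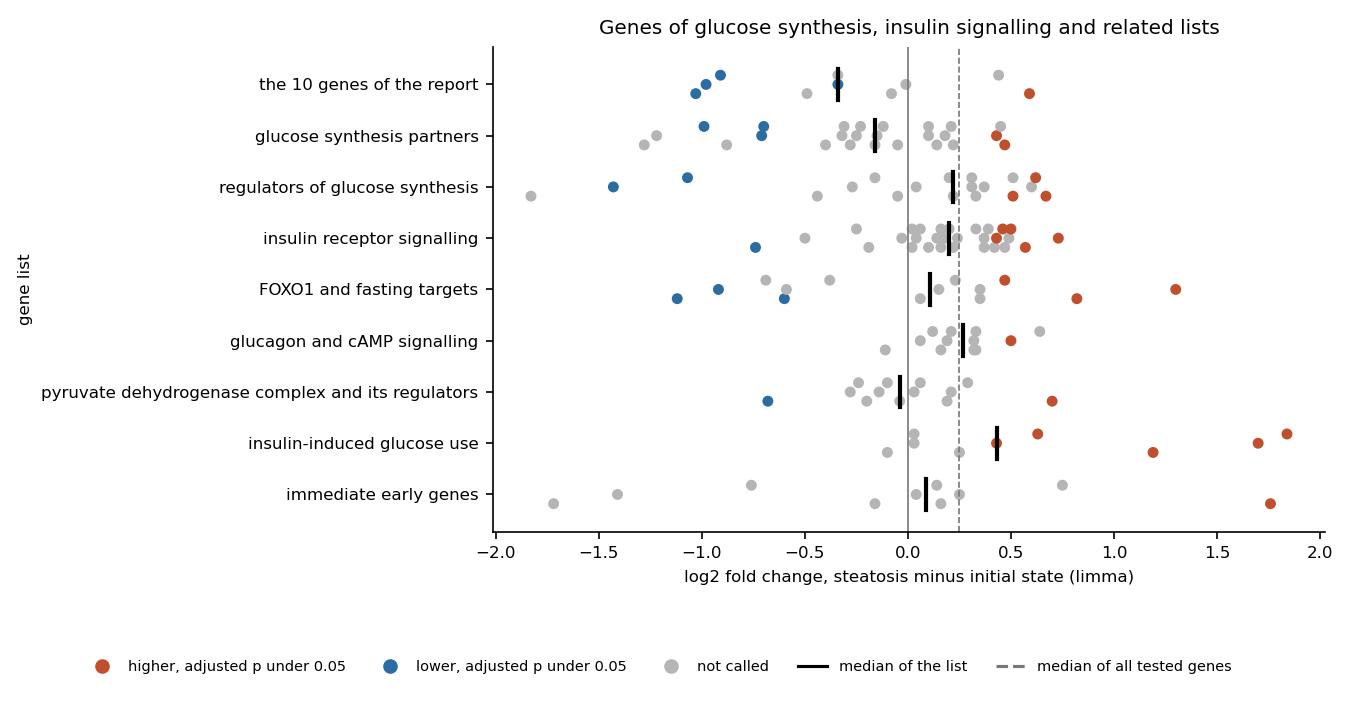
Log2 fold change, steatosis minus initial state, of every measured gene in the 10 genes described and in 8 further lists, with called genes in colour, the median of each list as a black bar and the median of all genes tested (0.25) as a dashed line. The medians of the 10 genes (-0.34) and of the glucose synthesis partners (-0.16) lie to the left of 0, and that of insulin-induced glucose use (0.43) to the right of the dashed line. The last list also holds genes of fatty acid synthesis.

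The pattern of each gene over the 8 libraries was set against the 10580 other tested genes with a symbol and a mean of at least 1 FPKM, by Pearson's r on log2(FPKM + 0.1). These values hold the difference between groups as well as the spread of the pools, and they are descriptions. PCK1 was most like TOB1 (r = 0.986), GYS2, the liver glycogen synthase (r = 0.974), and G6PC (r = 0.973). G6PC was closely matched by UBL3 (r = 0.987) and CDH13 (r = 0.981). PC was most like LDLRAD3 (r = 0.981), and FBP1 like RBP4, the retinol carrier of plasma (r = 0.952), and SQLE of cholesterol synthesis (r = 0.950). PPARGC1A was most like ELL2 (r = 0.983), SLC25A25 (r = 0.979) and SOCS1 (r = 0.963).

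The levels of ZFP36, an immediate early gene, DES and AK1 were the most like those of IRS2 (r = 0.980, 0.978 and 0.976), and each was highest in initial pool 1, with 217 FPKM of ZFP36 against 24.6 to 46.8 FPKM in the other 7 libraries. FOXO1 was most like JMY (r = 0.983), and IRS1 like PINK1 (r = 0.960). PDK4 was most like FCGR2B, an immunoglobulin receptor (r = 0.974), and also like LIPA, the lysosomal lipase (r = 0.963). PCK2, which hardly differed between libraries, had the lowest likeness (TMEM68, r = 0.914).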

How the data were processed

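Hepatic RNA of 8 pools, 4 per group, was sequenced by the authors (polyA selection, paired reads of 100 bp). Per the labels and methods, reads were mapped to Sus scrofa 11.1 with HISAT2 2.0.4, transcripts were assembled with StringTie, and Bowtie2 2.2.5 and RSEM 1.2.12 gave the FPKM that the authors deposited, with no scaling between libraries stated. The deposited comparisons of single pairs of libraries hold the authors' fold changes and p-values and were not used. Read totals are not given in these values, so depth is unknown and precision is the SD between pools.

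The 13175 genes that reached 0.3 FPKM in 4 or more libraries were fitted with limma 3.58.1 in R 4.3.3 (eBayes with trend) on log2(FPKM + 0.1), the group being the only term. Fold changes on this scale understate those of low genes. Single values and ratios were compared by two-sided exact permutation tests in Python 3.11.15. Coordinates are those of RefSeq (Sscrofa11.1), matched by gene ID for all 10 genes. Where a symbol had several rows, the row with the higher mean was taken. On simulated data with 13175 genes, 66% of 100 genes changed by 1 and 96% of 100 changed by 2 on the log2 scale were found. The simulation had independent noise of the same spread in both groups, no shift between libraries and no outlying pool. These shares therefore need not hold for the real libraries.

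Members and lists were chosen with earlier results of these data known. Of each list, at most 4 called genes of the largest log2 fold change with a mean of at least 1 FPKM in a group were to be named; the other called genes of a list and a few not called, such as INSR, GCGR and FASN, were added after their values were seen. Each gene was set beside the 3 genes of highest r. Some genes are not reported here. The pool numbers were read as pairs, since deviations of same-numbered pools correlated at 0.16, 0.35, 0.32 and 0.25, although no source states it. The alternatives were 3 scalings, 2 filters, 2 pseudocounts, the block, left-out libraries and a limit of 0.01.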

Additional observations from a re-analysis of the deposited data

Results flagged for a closer look

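PPARGC1A stood at 6.96 FPKM in initial pool 1, and the gap to the next initial pool was 0.837 of the range of the 4 initial pools, above Dixon's critical value for 4 samples. It was the only value so far from its group among 24 groups of 4 pools tested (10 genes and 2 ratios in each group), and chance gives about 1 in 20. IRS2 in the same pool came close (0.817). Without initial pool 1 PPARGC1A was still lower in steatosis (log2 fold change -0.63, limma adjusted p = 0.034, range over 19 alternatives 0.0219 to 0.097).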

How the results depend on the processing

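Fold changes (log2) of PC, PCK1, FBP1, G6PC and PPARGC1A stayed below 0 and those of IRS1 and PDK4 above 0 in all 19 alternatives, while their calls often changed. Genes higher and lower (3519 and 300) became 1728 and 959 with upper quartile scaling, 1539 and 1289 with median ratio scaling, 1511 and 1093 with that scaling and the replicate block, 2301 and 163 without pool 3 of both groups, and 1696 and 98 at an adjusted p under 0.01. The share of higher among called genes went from 92.1% to 64.3% (upper quartile) and 54.4% (median ratio). With 1 library left out the counts were 2324 to 3389 and 173 to 395. Of the 10 genes, the count higher (1) was 0 with upper quartile or median ratio scaling, with the latter and the block, without a filter and at 0.01, and 0 to 1 with a library left out. The count lower (4) was 1 without a filter, 0 without pool 3 of both groups and 0 at 0.01, and 1 to 4 with a library left out. Past an adjusted p of 0.01 and a log2 fold change of 1 there was 1 gene after upper quartile or median ratio scaling, and 0 to 2 with a library left out (2 without initial pool 4). With a pseudocount of 1, the log2 ratios of PCK1 to PCK2 (-1.02) and of IRS2 to IRS1 (-0.68) had an adjusted p of 0.0571. For PCK1 to PCK2 this came from the adjustment over 2 ratios, as its pools still did not overlap. With a library left out the log2 ratios were -1.25 to -0.80 and -0.94 to -0.55. With a library left out FOXO1 ran from -0.22 to 0.12 (without initial pool 1) and PCK2 from -0.03 to 0.01 and 0.03 (without initial pool 2 or steatosis pool 1). The replicate block gave 3383 higher and 343 lower genes and, among the 10 genes, changed the calls of PC and FBP1 only; within pairs the exact sign-flip p of both ratios was 0.125, the smallest possible. The causes were not tested. The number of pools and the unknown depth limit the precision of low genes such as PPARGC1A.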

Other observations

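Some genes of the lists that did not pass the test without a block had levels that differed widely between the initial pools. They were chosen after their values were seen. SLC2A2, the glucose transporter of hepatocytes, had 253, 120.2, 37.1 and 32.5 FPKM in initial pools 1 to 4 and 38.5 to 47.9 FPKM in steatosis (log2 fold change -0.88, limma adjusted p = 0.258). Tyrosine aminotransferase (TAT) had 616, 352, 248 and 111 FPKM in the initial pools and 97.8 to 155 FPKM in steatosis (-1.22, adjusted p = 0.0562), and was called lower in the fit blocked on the pool number (adjusted p = 0.0263), after median ratio scaling (-1.49, adjusted p = 0.0306) and without initial pool 4. Serine dehydratase (SDS) had 8.36, 5.32, 5.94 and 3.35 FPKM and then 1.26, 4.85, 3.07 and 1.19 FPKM (-1.28, adjusted p = 0.0519), and was called lower in the blocked fit (adjusted p = 0.0326), after median ratio scaling (-1.54, adjusted p = 0.0338) and without initial pool 4 or steatosis pool 2. IGFBP1, a target of FOXO1, had 1534, 384, 936 and 366 FPKM and then 339.5 to 577 FPKM (-0.69, adjusted p = 0.248). SIK1, a kinase induced by cAMP, had 56.4, 6.77, 18.2 and 2.70 FPKM and then 2.19 to 4.19 FPKM (-1.83, adjusted p = 0.0931), and was called lower in the blocked fit (adjusted p = 0.0363) and without initial pool 4 but not after median ratio scaling (-2.09, adjusted p = 0.0769). In these 5 genes initial pool 1 was the highest of the initial pools, as it was for 23.7% of all genes tested. Other widely spread genes of the lists peaked elsewhere among the initial pools. TRIB3 had 2.30, 11.9, 4.39 and 1.99 FPKM in initial pools 1 to 4, and FGF21 had 7.74, 22.9, 8.91 and 8.95 FPKM.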
